A study of Homo sapiens with 10 samples.

Results

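Fibroblast growth factors (FGFs) and the genes that carry, receive and dampen their signal were examined in human embryonic stem cells (ESCs) and in the neuroectodermal cells (NECs) derived from them. The set was fixed by name and comprised 36 genes of the 31017 in the RNA-seq count table: 18 secreted FGF ligands, 4 intracellular FGFs, 4 FGF receptors, 7 feedback inhibitors and 3 ETS transcription factors that act as targets of the pathway. For Promoter Capture Hi-C (PCHi-C), a promoter was the captured HindIII fragment (the bait) that holds the gene start given in the count table. This placed 35 of the 36 genes on 35 baits of 21833, and FGF22 had no bait in the lists.

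The ESCs were the H9 line kept in Pluripro medium and matrix, and the NECs were the same line collected on day 7 of differentiation. Each cell type had 2 biological replicates for RNA-seq and 2 for PCHi-C, and replicate 2 of the ESC PCHi-C pooled technical replicates. All samples share 1 cell line, no gene was altered or targeted in either cell type, and whether either medium contained added FGF is not given in the sources used here. The RNA-seq libraries held 19234087, 25356382, 20793224 and 24323762 counted reads, and the file header places the ESC libraries in one sequencing lane and the NEC libraries in another, so lane and cell type cannot be told apart. Markers went with the labels: the summed level of 10 pluripotency genes was 6584 and 7075 CPM (reads scaled to library size) in ESCs against 1084 and 1670 in NECs, and that of 10 neuroectoderm genes was 8.79 and 7.08 against 462 and 406. The libraries were not equal within a cell type. All the pluripotency genes had their larger NEC value in replicate 2. POU5F1 was at 31.0 and 111 CPM in NECs, TDGF1 at 1.83 and 11.1 and L1TD1 at 24.8 and 90.1. LIN28A, at 729 and 941 CPM, made up most of the NEC sum. The part of cells with this RNA in the levels of the FGF genes was not tested. ESC replicate 2 held more RNA of 10 mesendoderm genes (40.1 and 108 CPM in ESCs, 8.94 and 8.67 in NECs), and NEC replicate 1 more of 10 neural crest genes (149 and 137 CPM in ESCs, 261 and 127 in NECs). The crest sum in ESCs was mostly ETS1, which fell from 106 and 105 CPM to 28.5 and 4.86. By the rule given below, 6 of the 10 crest genes were higher in NECs and 1 lower. PAX3 was at 0.26 and 0.32 CPM in ESCs and 66.3 and 17.9 in NECs.

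Most secreted FGFs bind FGF receptor tyrosine kinases together with heparan sulphate, and the activated receptor signals through RAS and the ERK kinases to ETS transcription factors. Sprouty and SPRED proteins act on the path to ERK, and the phosphatases DUSP4 and DUSP6 remove the activating phosphates from ERK, so that the pathway induces its own inhibitors. FGF2 is a standard supplement for keeping human ESCs undifferentiated, while FGF8 and related ligands are known patterning signals of the early neural tube.

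Counted by single fragment, the promoters of SPRY2 and DUSP6 gained more contacts (defined below) than those of any other member, and that of FGF2 belongs to the ligand with the largest RNA level, so their sequences are shown. With fragments within 10 kb counted as the same contact, SPRY2 had 4 gained contacts and DUSP6 0. Promoters of 25 of the 36 genes could be matched from the RefSeq table of 300-base promoters (GRCh38.p14), which runs from 250 bases before the start to 50 after it, to an identical stretch of GRCh37. The GRCh37 position of each is given. Capitals mark the letters CCGGAA on either strand, a form of the sites that ETS factors bind, and other forms are not marked.
SPRY2 promoter, chr13:80915212-80915511, minus strand: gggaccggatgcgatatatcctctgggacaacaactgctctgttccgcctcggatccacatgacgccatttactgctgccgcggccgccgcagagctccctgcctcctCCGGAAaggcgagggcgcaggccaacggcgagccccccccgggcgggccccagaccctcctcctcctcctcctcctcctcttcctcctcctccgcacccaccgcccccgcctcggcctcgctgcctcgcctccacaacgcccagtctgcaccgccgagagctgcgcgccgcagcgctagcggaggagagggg
DUSP6 promoter, chr12:89746229-89746528, minus strand: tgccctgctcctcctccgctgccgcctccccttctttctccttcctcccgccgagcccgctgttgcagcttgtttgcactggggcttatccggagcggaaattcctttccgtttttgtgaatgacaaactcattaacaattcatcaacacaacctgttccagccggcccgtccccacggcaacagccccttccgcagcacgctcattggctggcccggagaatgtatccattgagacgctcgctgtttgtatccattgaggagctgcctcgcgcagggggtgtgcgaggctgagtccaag
FGF2 promoter, chr4:123747736-123748035, plus strand: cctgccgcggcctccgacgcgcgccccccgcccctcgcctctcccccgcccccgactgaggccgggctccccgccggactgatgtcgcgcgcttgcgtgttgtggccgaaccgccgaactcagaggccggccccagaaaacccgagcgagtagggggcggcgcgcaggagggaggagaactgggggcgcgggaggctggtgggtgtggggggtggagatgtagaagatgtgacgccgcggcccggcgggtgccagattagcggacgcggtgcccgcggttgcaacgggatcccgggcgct

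The 6 letters occurred in 2 of the 25 matched promoters, those of SPRY2 and ETV1, which is 8.0% against 17.2% of the 35116 promoters in the RefSeq table. In SPRY2 the match began 142 bases before the start and in ETV1 136 bases before it. The SPRY2 and DUSP6 starts of RefSeq lay 175 and 770 bases from the starts in the count table and on the same baits.

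Most of the tested ligands were lower in NECs. Of the 18 ligands, 12 had enough reads to be tested, and a gene was called when edgeR's quasi-likelihood test gave a Benjamini-Hochberg adjusted p under 0.05 over the 17564 genes tested and the log2 fold change (NEC over ESC) exceeded 1.5 in size. By this rule 7 ligands were lower and 2 higher in NECs. Their median log2 fold change was -2.47, against 0.01 over all genes tested. Over all 36 members 29 were tested, of which 8 were lower, 6 were higher and 15 were not called. Of all genes tested 21.0% were called, 11.4% higher and 9.68% lower. The libraries of the cell types did not overlap for 24 of the 29, or 82.8%, close to the 83.8% of all genes tested. Here, as in all bulk RNA values below, fewer expressing cells and less RNA per cell cannot be told apart.

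FGF2, the ligand used to maintain pluripotency in culture, was read at 159 and 161 CPM in the ESC replicates and at 21.3 and 26.6 CPM in the NEC replicates. The replicates did not overlap, and the level in NECs was 6.67-fold lower (log2 fold change -2.74, SE 0.13, edgeR adjusted p = 2.6e-05). Its exons overlap those of NUDT6 on the opposite strand, and the reads were counted without strand.

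FGF4, a ligand of the early embryo, had 35 and 72 reads in ESCs and 0 in both NEC libraries. At a floor of 3 reads per library it was at least 18.2-fold lower in NECs (edgeR adjusted p = 0.00068). FGF16, of the FGF9 subfamily, had 47 and 46 reads in ESCs and 0 in both NEC libraries, at least 16.6-fold lower (edgeR adjusted p = 0.00055). These are the only tested members with no read at all in a cell type.

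FGF8, FGF17 and FGF18 form the FGF8 subfamily, whose members act in midbrain and limb patterning, and all were lower in NECs. FGF8 was at 13.2 and 19.7 CPM in ESCs and 2.01 and 3.20 in the NEC libraries (log2 fold change -2.65, SE 0.30, edgeR adjusted p = 0.00058). FGF18 was at 2.54 and 3.24 CPM against 0.70 and 0.49 (log2 fold change -2.29, SE 0.34, edgeR adjusted p = 0.0017). FGF17 was the least even of the called genes, at 5.51 and 18.8 CPM in ESCs against 1.92 and 0.65 in the NEC libraries (log2 fold change -3.28, SE 0.70, edgeR adjusted p = 0.0072). FGF19, a ligand of the endocrine subfamily, was at 3.97 and 8.21 CPM against 0.75 and 0.49 (log2 fold change -3.31, SE 0.46, edgeR adjusted p = 0.0013). For FGF8, FGF17, FGF18 and FGF19 the higher ESC value was that of ESC replicate 2, the library with more mesendoderm RNA, and the part of those cells in these levels was not tested. Without ESC replicate 2 the log2 fold change was -2.12 for FGF17 and -2.69 for FGF19. That of FGF17 was -3.91 without ESC replicate 1, -4.23 without NEC replicate 1 and -2.68 without NEC replicate 2, and both genes stayed called in each case.

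The ligands that rose started from a few reads. FGF9, which acts in glial and gonadal development, went from 5 and 6 reads in ESCs to 50 and 66 in NECs, or 0.26 and 0.24 against 2.34 and 2.68 CPM (log2 fold change 3.28, SE 0.36, edgeR adjusted p = 0.00050). FGF10, a limb and lung bud ligand, went from 3 and 6 reads to 72 and 131, or 0.16 and 0.24 against 3.37 and 5.31 CPM (log2 fold change 4.37, SE 0.44, edgeR adjusted p = 0.00037). Exons of FGF10 overlap those of FGF10-AS1 on the opposite strand.

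Of the tested ligands that were not called, FGF5 had 12 and 13 reads in ESCs and 20 and 44 in NECs (log2 fold change 1.24, edgeR adjusted p = 0.045), under the fold limit; without NEC replicate 1 it was called, at 1.63. FGF1 had 27 and 32 reads against 11 and 24 (log2 fold change -0.85, edgeR adjusted p = 0.10), and FGF23 had 11 and 12 against 16 and 21 (0.59, edgeR adjusted p = 0.20). The remaining 6 ligands had too few reads to be tested. FGF3 had no read in ESCs and 15 and 7 in NECs, at least 3.52-fold higher, and FGF6 had none in ESCs and 4 in each NEC library, at least 1.25-fold higher. FGF7 had 0 and 1 reads against 9 and 1, and its 6 annotated pseudogenes may share reads with it. FGF22 had 2 and 5 reads against 11 and 7 (ratio of summed reads 2.43, 95% counting interval 0.97 to 6.90). FGF20 (1 and 2 reads in ESCs) and FGF21 (1 read in ESC replicate 1) had no read in NECs and lie under the floor in every library.

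**Figure D1:**
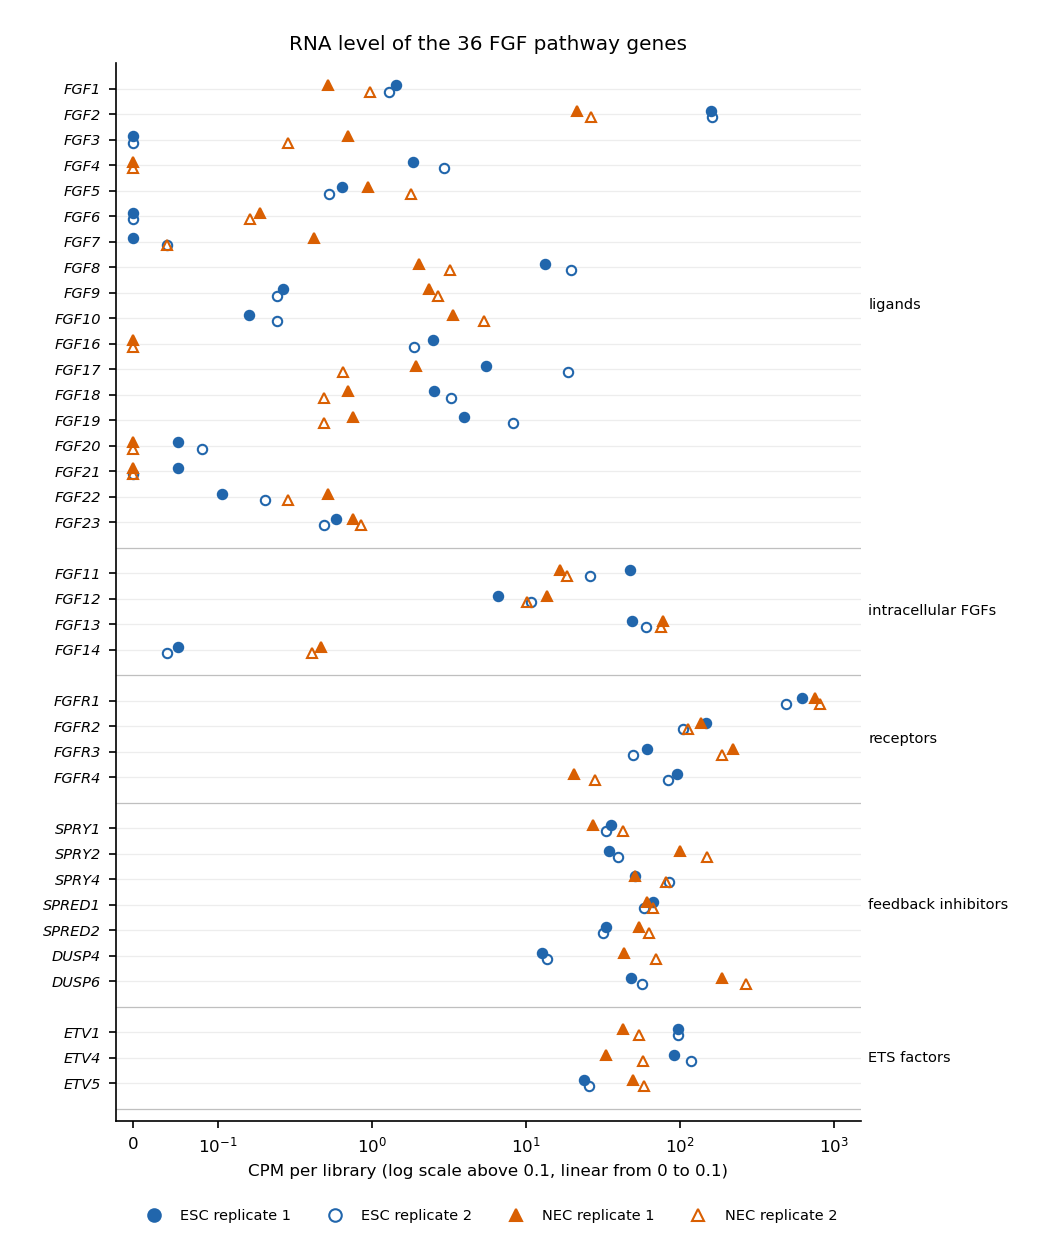
RNA level of each of the 36 genes in CPM (horizontal axis, logarithmic above 0.1 CPM and linear below), grouped by role, with circles for ESC and triangles for NEC libraries, filled for replicate 1 and open for replicate 2. FGF2 stands apart from the other ligands in both cell types, and the receptors lie at 20.5 CPM or more in every library.

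Levels of different genes were compared as CPM per kb of merged exon of the basic coding transcripts in GENCODE. The authors counted the reads on a separate Ensembl gene set, so the counted and the measured exons may differ. Shares and rankings between genes rest on these lengths. The ligands summed to 44.4 and 59.9 CPM per kb in ESCs and to 9.33 and 10.2 in NECs. FGF2 was the most abundant ligand in every library, with 52.8% and 39.5% of that sum in ESCs and 33.6% and 38.3% in NECs, and FGF8 came next, with 23.99% and 26.47% against 17.3% and 25.1%. FGF2 at 23.4 and 23.7 CPM per kb and FGF8 at 10.6 and 15.9 did not overlap in ESCs, nor in NECs, where FGF2 was at 3.14 and 3.92 and FGF8 at 1.62 and 2.57. FGF10 went from 0.059% and 0.066% of the ligand sum in ESCs to 5.91% and 8.49% in NECs, and FGF9 from 0.13% and 0.089% to 5.54% and 5.77%. FGF17 took 7.13% and 18.0% of the sum in ESCs and 11.8% and 3.64% in NECs, so its share overlapped between the cell types.

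**Figure D2:**
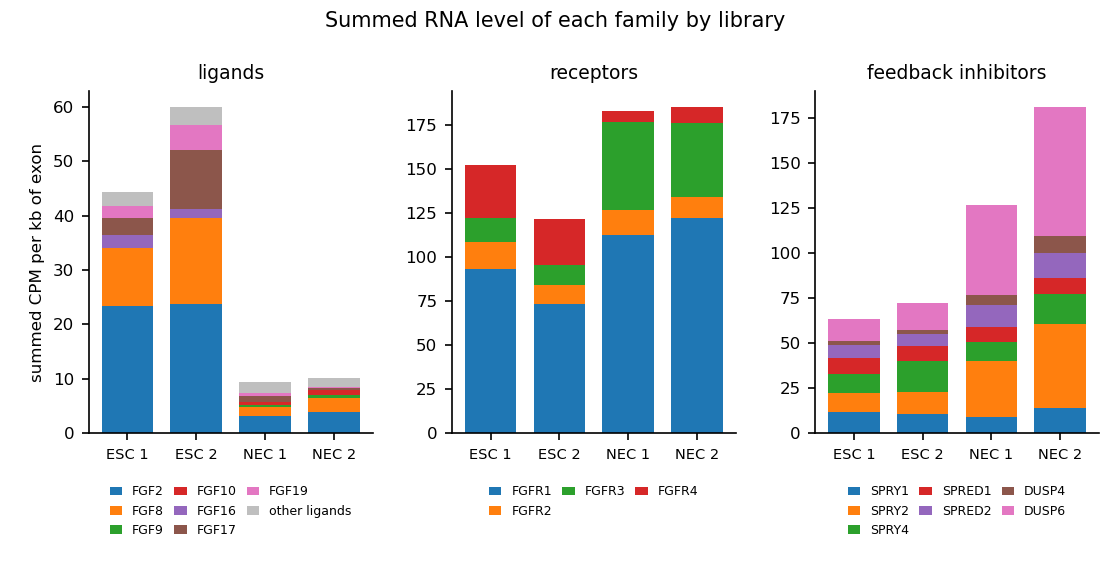
Summed level of ligands, receptors and feedback inhibitors in each library, as CPM per kb of exon stacked by gene; ligands that never reach 5% of the sum are drawn together as other ligands. The ligand bars are 44.4 and 59.9 high in ESCs and 9.33 and 10.2 in NECs, whereas the receptor and inhibitor bars are higher in NECs.

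Among the receptors, which bind ligands at the cell surface, FGFR3 rose and FGFR4 fell, and per kb of exon FGFR4 was the second most abundant in ESCs and FGFR3 in NECs. FGFR3 was at 60.7 and 49.8 CPM in ESCs and 220 and 187 in the NEC libraries (log2 fold change 1.89, SE 0.13, edgeR adjusted p = 0.00011). FGFR4 was at 95.4 and 83.9 CPM in ESCs and 20.5 and 28.3 in the NEC libraries (log2 fold change -1.88, SE 0.17, edgeR adjusted p = 0.00023). FGFR3 has 4 annotated pseudogenes that may share its reads. FGFR1 was the most abundant receptor in each library, at 625 and 489 CPM in ESCs and 753 and 818 in NECs, and its change stayed under the fold limit (log2 fold change 0.50, SE 0.14, edgeR adjusted p = 0.023). FGFR2 was at 147 and 104 CPM in ESCs and 138 and 113 in NECs, with overlapping replicates (95% interval of the log2 fold change -0.43 to 0.43, edgeR adjusted p = 0.998).

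Per kb of exon, FGFR1 held 61.2% and 60.1% of the receptor sum in ESCs and 61.5% and 66.1% in NECs. FGFR4 went from 19.7% and 21.7% to 3.52% and 4.81%, and FGFR3 from 8.93% and 9.19% to 27.1% and 22.7%. FGFR2 and FGFR3 were neighbours in ESCs whose levels overlapped, at 15.4 and 10.9 against 13.6 and 11.2 CPM per kb, while in NECs FGFR3 at 49.4 and 41.97 lay above FGFR2 at 14.5 and 11.8. The receptor sum was 152 and 122 CPM per kb in ESCs and 183 and 185 in NECs.

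The intracellular FGFs, which stay in the cell and bind sodium channels instead of receptors, included no called gene. FGF11 was at 47.3 and 26.0 CPM in ESCs and 16.6 and 18.5 in NECs (log2 fold change -1.06, edgeR adjusted p = 0.014). FGF13 was at 48.6 and 60.2 CPM against 78.0 and 75.4 (0.49, edgeR adjusted p = 0.012). FGF12 overlapped between the cell types, at 6.57 and 10.8 against 13.7 and 10.1 CPM (0.45, edgeR adjusted p = 0.20). FGF14 had 1 read in each ESC library and 10 in each NEC library and was not tested (ratio of summed reads 9.47, 95% counting interval 2.30 to 83.6). Its exons overlap those of the coding gene ITGBL1 on the opposite strand and of long non-coding genes, among them FGF14-IT1. Exons of FGF11, FGF13 and the receptor FGFR1 also overlap those of long non-coding genes.

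Of the 7 feedback inhibitors, 3 rose, none fell and 4 were not called, with a median log2 fold change of 0.86. DUSP6, the phosphatase of cytoplasmic ERK, was at 47.8 and 56.6 CPM in ESCs and 187 and 269 in the NEC libraries (log2 fold change 2.12, SE 0.19, edgeR adjusted p = 0.00023). DUSP4, its nuclear relative, had 240 and 340 reads in ESCs against 922 and 1727 in the NEC libraries (log2 fold change 2.10, SE 0.23, edgeR adjusted p = 0.00053). SPRY2, a Sprouty protein, was at 34.6 and 39.4 CPM against 101 and 149 (log2 fold change 1.75, SE 0.19, edgeR adjusted p = 0.00051). For all 3 the higher NEC value was that of replicate 2, and without that library SPRY2 was at 1.44 and no longer passed the fold limit. Exons of DUSP6 overlap those of a long non-coding gene on the opposite strand.

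The other 4 inhibitors were not called. SPRED2 was at 33.0 and 31.8 CPM in ESCs and 54.3 and 63.1 in NECs (log2 fold change 0.86, edgeR adjusted p = 0.00088), below the fold limit. SPRY1 was at 35.4 and 32.8 against 27.3 and 43.0 CPM, SPRY4 at 51.0 and 85.4 against 51.4 and 81.2, and SPRED1 at 66.8 and 58.4 against 60.8 and 66.4. In these 3 genes the replicates overlapped. The 95% intervals of their log2 fold changes ran from -0.45 to 0.54 for SPRY1, -0.73 to 0.65 for SPRY4 and -0.23 to 0.28 for SPRED1. Per kb of exon, DUSP6 went from 19.9% and 20.8% of the summed inhibitor level in ESCs to 39.2% and 39.4% in NECs, and the sum from 63.6 and 72.2 to 126 and 181 CPM per kb.

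The ETS factors of the ETV1, ETV4 and ETV5 subfamily had fold changes of different sign, each short of the fold limit. ETV1 was at 97.3 and 97.6 CPM in ESCs and 42.4 and 54.3 in NECs (log2 fold change -1.01, edgeR adjusted p = 0.00092). ETV4 was at 90.9 and 117 against 32.9 and 58.0 CPM (-1.19, edgeR adjusted p = 0.0078), and without NEC replicate 2 it was called, at -1.66. ETV5 was at 23.8 and 25.6 against 49.6 and 58.0 CPM (1.12, edgeR adjusted p = 0.00042). ETV4 and ETV5 each have exons that overlap a neighbouring coding gene, DHX8 and DGKG.

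**Figure D3:**
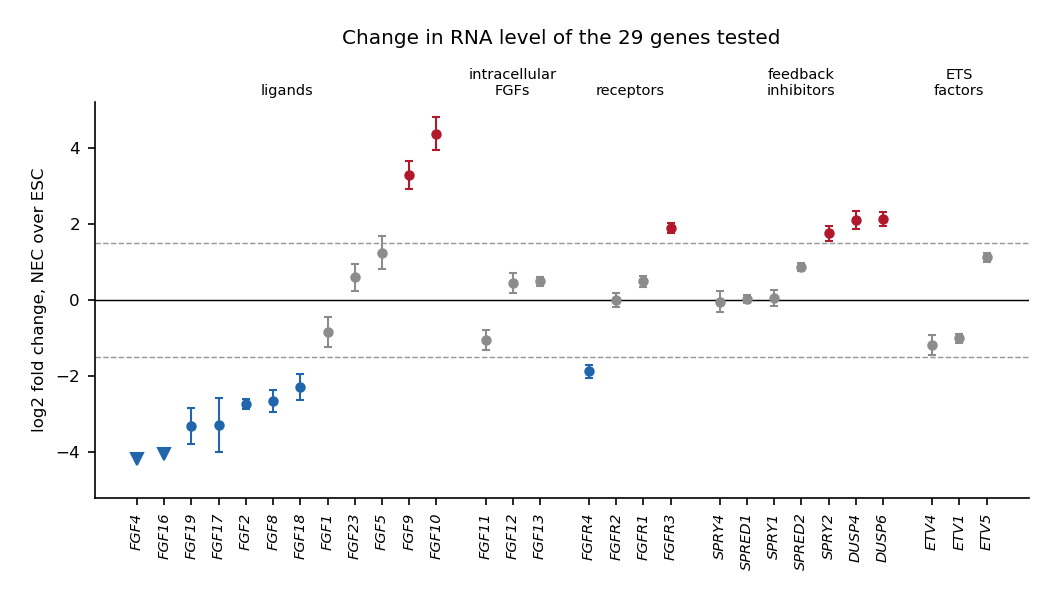
Log2 fold change (NEC over ESC) of the 29 tested genes by role, with bars of 1 SE and dashed lines at the limit of 1.5; red genes were called higher, blue genes lower and grey genes were not called. The downward triangles of FGF4 and FGF16 stand at the bound set by 0 reads in NECs. Ligands fill the lower left, and the inhibitors lie near or above 0.

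Of the genes that surround the pathway, the co-receptors and matrix partners included called genes in both directions, and the relay to ERK included none. Of 24 cofactors 22 were tested, 6 rose and 3 fell. SULF1, which trims sulphate from heparan sulphate, rose from 8.32 and 8.58 CPM to 216 and 192 (log2 fold change 4.59). FGFBP3, a carrier of FGFs, rose from 143 and 77.3 to 1126 and 940 CPM (3.23). FLRT3 (2.96), FLRT1 (2.12), SDC3 (2.01) and SDC2 (1.70), all membrane partners, were also higher. The heparan sulphate proteoglycan GPC4 fell from 2335 and 2001 CPM to 274 and 331 (-2.84), and KAL1 (-2.79) and FGFBP2 (-1.75) fell with it. The median log2 fold change of the cofactors was 0.40. Of the 24 transduction genes, which relay the signal from the receptor to ERK, all were tested and 0 were called, with a median of 0.03. At an adjusted p under 0.05 alone, 10 were higher and 8 lower, by edgeR, where 61.1% of all genes tested were called.

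Of 20 other feedback and target genes, 4 rose and 4 fell, with a median log2 fold change of -0.06. The early response factor EGR2, also a hindbrain gene, rose from 0.32 and 0.32 CPM to 68.3 and 92.5 (log2 fold change 7.94), GBX2, a gene of the anterior hindbrain, from 1.22 and 2.51 to 48.1 and 113 (5.38), and EGR3 (4.12) was higher too. PHLDA1 (-3.64), the phosphatase DUSP2 (-2.91) and FOSL1 (-2.60) were lower. EGR1 (2.50) rose and IER3 (-2.26) fell.

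**Figure D4:**
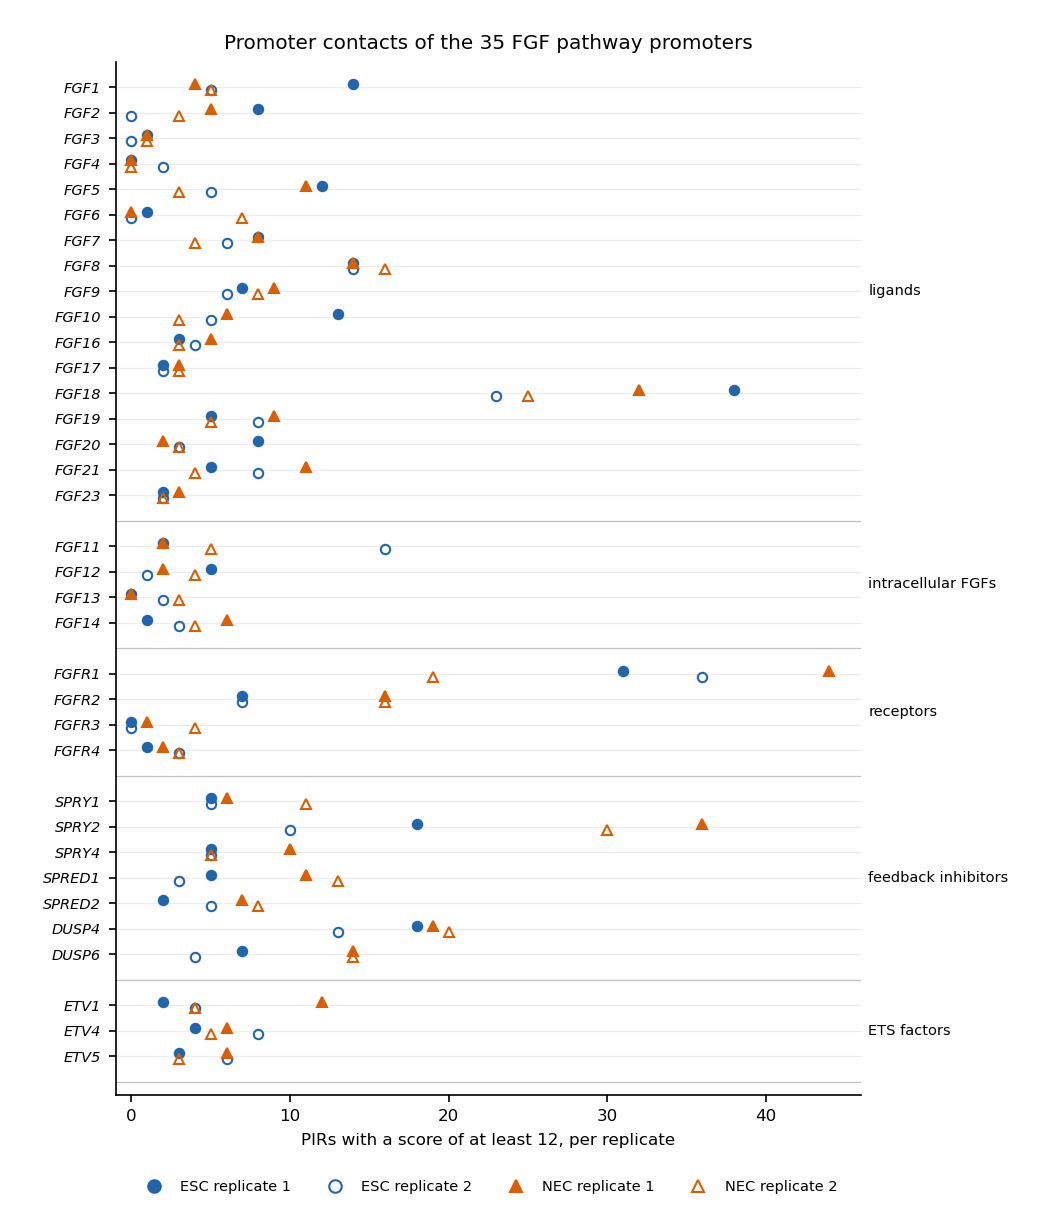
Number of promoter-interacting regions (PIRs) of each of the 35 promoters in each PCHi-C replicate, grouped by role, with circles for ESC and triangles for NEC replicates. FGF18 and FGFR1 have the most contacts in ESCs, and the NEC replicates of SPRY2, DUSP6 and FGFR2 lie to the right of both ESC replicates.

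PCHi-C lists the fragments, here called PIRs, that were ligated to a bait more often than their distance predicts. Each pair carries a CHiCAGO score, a weighted p-value turned into its negative log, and only pairs that scored 12 or more are listed, so a missing pair scored below 12 and may still be in contact. The lists hold no read numbers, so the depth behind a score is unknown. In the merged lists, in which the replicates of a cell type were scored together, the 35 promoters contacted 357 PIRs (ESC list) and 393 (NEC list). Of these 192 were the same fragment, 53.8% of the ESC and 48.9% of the NEC PIRs, against 44.2% and 44.3% over all baits. PIR numbers were not tested, since an exact permutation test of 2 replicates against 2 cannot reach a p of 0.05, and they are set beside the spread between replicates.

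In 11 of the 35 promoters both NEC replicates had more PIRs than both ESC replicates, and in 0 the reverse held. Over all 21833 baits this was 13.1% with NECs above and 12.8% with ESCs above. These shares were not matched for PIR number. The median over all baits was 2.0 in both merged lists, against 7.0 in ESCs and 6.0 in NECs for the members. By role, feedback inhibitors made up 6 of the 11, that is 6 of 7 inhibitors (SPRY1, SPRY2, SPRED1, SPRED2, DUSP4 and DUSP6, without SPRY4). The others were FGF9, FGF14, FGF17, FGFR2 and FGFR3. Some of these gaps were narrow. The nearest ESC and NEC replicates had 18 and 19 PIRs for DUSP4, 5 and 6 for SPRY1, 2 and 3 for FGF17 and 0 and 1 for FGFR3. For SPRY2 they had 18 and 30. Summed over the inhibitors, the ESC replicates had 60 and 45 PIRs and the NEC replicates 103 and 101. The ligands had 141 and 93 against 123 and 95, the receptors 39 and 46 against 63 and 42, the intracellular FGFs 8 and 22 against 10 and 16, and the ETS factors 9 and 18 against 24 and 12, all of which overlapped.

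A contact was taken as gained when called in both NEC replicates and in neither ESC replicate nor the merged ESC list, as lost in the reverse case, and as retained when called in all 4 replicates. The members had 34 gained, 17 lost and 40 retained contacts. At least 1 gained contact was found at 15 promoters of 35, at least 1 lost at 10 and at least 1 retained at 14, where the shares over all baits were 17.8%, 19.0% and 18.3%; the members also have more PIRs per promoter than other baits, with a median of 7.0 in ESCs against 2.0. Gained and lost PIRs lay at a median distance of 515 and 556 kb and retained ones at 228 kb, and 25 of the 34 gained, 10 of the 17 lost and 22 of the 40 retained PIRs were intergenic. Of the gained contacts 22 belonged to feedback inhibitors, 7 to ligands, 3 to receptors and 2 to an intracellular FGF. These numbers rest on which fragments pass 12 in each replicate. With a replicate left out, the rule used only the other replicate of that cell type, and its list replaced the merged one. The gained, lost and retained numbers could then only stay or rise. Without ESC replicate 1, ESC replicate 2, NEC replicate 1 or NEC replicate 2 the gained contacts numbered 68, 52, 160 and 162 and the lost ones 105, 111, 49 and 29. The shared PIRs numbered 109 without ESC replicate 1 and 99 without NEC replicate 1, the ESC PIRs 224 without ESC replicate 1, and the retained contacts 65 without ESC replicate 2 and again without NEC replicate 2. With fragments within 10 kb counted as the same contact, 12 were gained and 7 lost, and of these 12 the feedback inhibitors and the ligands had 5 each and the intracellular FGFs 2. Under this allowance FGF5, FGF10, FGF18, FGFR1, SPRED1, SPRED2 and DUSP6 had 0 gained and 0 lost contacts.

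DUSP6 (bait chr12:89741722-89751488, GRCh37) had 7 and 4 PIRs in the ESC replicates and 14 in each NEC replicate. It had 6 gained contacts, 0 lost and 1 retained. The retained PIR, chr12:89443534-89448109, is intergenic, lies 301 kb downstream and scored 14.56 and 13.76 in ESCs and 17.48 and 32.11 in NECs. Of the gained PIRs 5 lay beside or near it, between 293 and 316 kb downstream, the strongest being chr12:89448110-89450728 (below 12 in both ESC replicates, 20.35 and 18.64 in NECs). The sixth, chr12:89855012-89856321, lies 109 kb upstream on an exon of POC1B (17.02 and 19.43 in NECs). When PIRs within 10 kb were counted as the same contact, DUSP6 had 0 gained contacts and 3 retained.

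SPRY2 (bait chr13:80909745-80918842) went from 18 and 10 PIRs in the ESC replicates to 36 and 30 in the NEC replicates, and had 9 gained contacts, the most of any member. Of all baits 0.270% had 6 or more gained contacts, a count that SPRY2 and DUSP6 reached. That share was not matched for PIR number. The merged NEC list held a median of 2.0 PIRs over all baits, against 43 for SPRY2 and 15 for DUSP6. Upstream of the promoter the lists hold no PIR in either ESC replicate and 9 and 7 in NECs, 3 of them gained, 673 to 694 kb away, led by chr13:81592170-81594201 (16.06 and 17.09). Downstream the ESC replicates listed 18 and 10 PIRs and the NEC replicates 27 and 23, and the 6 gained ones lay 588 to 791 kb away, led by chr13:80253610-80257758 (15.79 and 17.79). The farthest lies on an exon of NDFIP2 and the others are intergenic. The retained PIR chr13:80345455-80352605 scored 13.69 and 13.06 in ESCs and 13.92 and 15.84 in NECs, and its neighbour chr13:80352606-80357020 had the highest merged NEC score of this promoter (26.03, against 12.44 in ESCs). With the 10 kb allowance SPRY2 had 4 gained and 0 lost contacts.

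The other inhibitors differed from these in scale. DUSP4 had 18 and 13 PIRs against 19 and 20, with 4 gained and 3 lost contacts, or 0 gained and 1 lost with the 10 kb allowance. SPRED1 had 5 and 3 against 11 and 13, with 2 gained contacts 191 and 196 kb upstream, and its top merged score was 19.11 in ESCs and 35.48 in NECs. With the 10 kb allowance SPRED1 had 0 gained contacts and 1 retained. SPRY1 had 5 and 5 against 6 and 11, with 1 gained contact, SPRED2 2 and 5 against 7 and 8, with 1 lost (its 2 basic coding transcripts in GENCODE start outside the bait), and SPRY4 5 and 5 against 10 and 5, with 2 retained. The RNA of SPRED1 and SPRY1, whose PIR numbers were higher in NECs, did not pass the expression test.

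**Figure D5:**
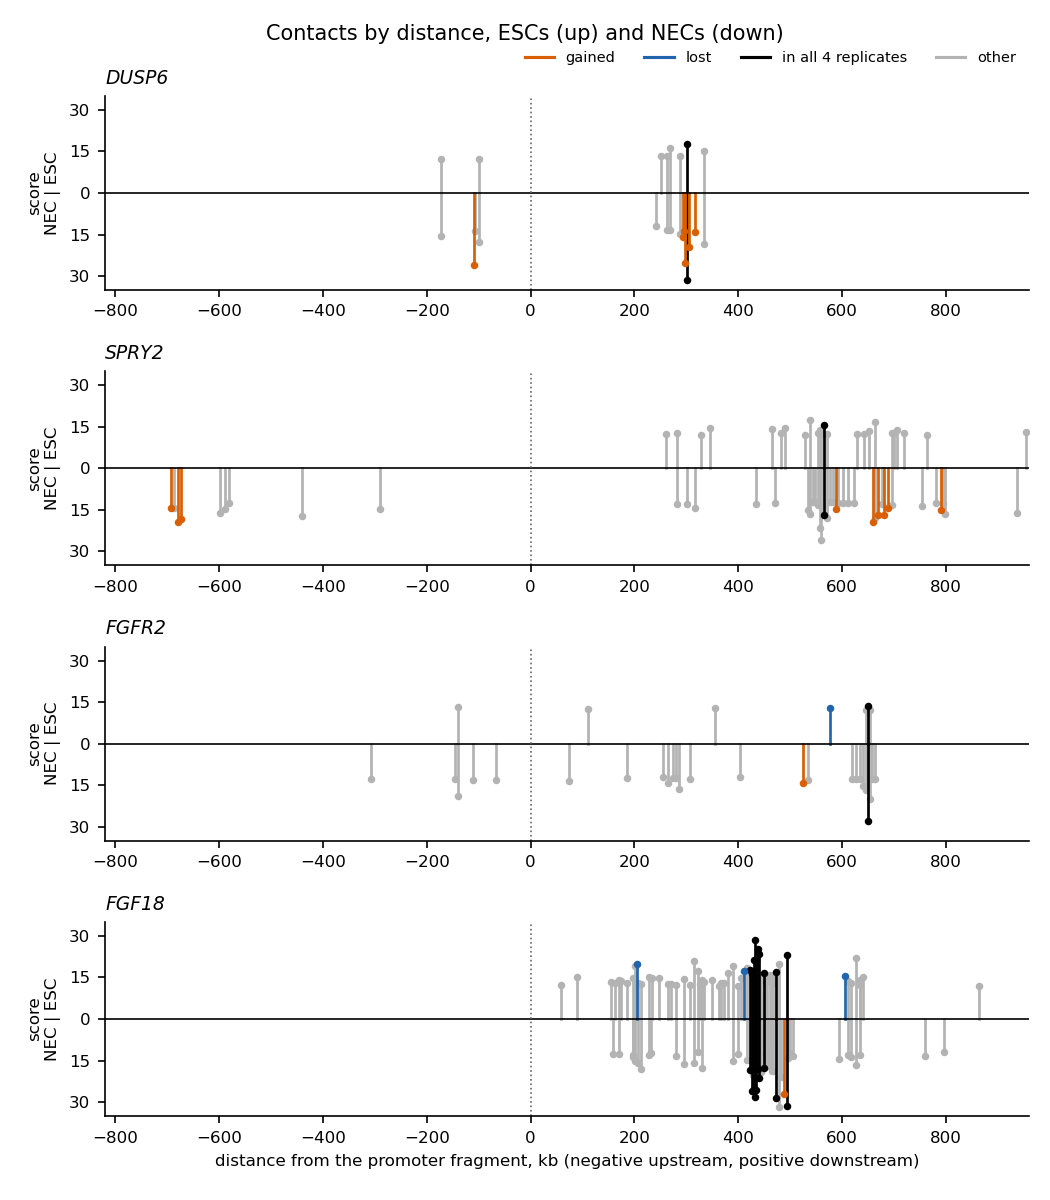
Merged CHiCAGO score (vertical axis, ESCs upward and NECs downward, scores below 12 not listed) against the distance in kb from the promoter fragment to the middle of the PIR, for DUSP6, SPRY2, FGFR2 and FGF18; each line is a PIR, coloured by whether it was gained, lost, retained in all 4 replicates or none of these. DUSP6 has a dense group 293 to 316 kb downstream, SPRY2 a NEC group upstream, and FGF18 contacts in the downstream direction in both cell types.

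Among the receptors, FGFR2 (bait chr10:123354490-123358400) had 7 PIRs in each ESC replicate and 16 in each NEC replicate, while its RNA overlapped between the cell types. It had 1 gained and 1 lost contact, or 0 gained and 1 lost with the 10 kb allowance. Its only retained PIR, chr10:122705718-122708722, lies 649 kb downstream and scored 12.97 and 12.68 in ESCs and 22.93 and 20.39 in NECs. FGFR1 had 31 and 36 PIRs against 44 and 19, so NEC replicates spanned the ESC values, with 2 gained and 1 lost contacts, and 11 retained ones, all 78.1 to 249 kb upstream, the most of any member. Its strongest, chr8:38568421-38576665, scored 21.5 and 17.39 in ESCs and 22.98 and 34.16 in NECs. With the 10 kb allowance FGFR1 had 0 gained, 0 lost and 20 retained contacts. FGFR3, the receptor whose RNA rose, had no PIR in the ESC replicates, 1 and 4 in NECs and none in either merged list. FGFR4, whose RNA fell, had 1 and 3 against 2 and 3.

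Among the ligands, FGF18 (bait chr5:170845216-170847873) had the most PIRs, 38 and 23 in ESCs and 32 and 25 in NECs, all downstream, with 10 retained, 1 gained and 3 lost. With the 10 kb allowance FGF18 had 18 retained, 0 gained and 0 lost. Its strongest ESC contact, chr5:171277174-171279180, lies 432 kb downstream (22.49 and 15.71 in ESCs, 17.17 and 22.6 in NECs), and others reach the gene FBXW11. FGF8 (bait chr10:103533315-103536658) had 14 and 14 PIRs against 14 and 16, with 1 gained and 2 lost contacts and 5 retained ones 161 to 190 kb downstream on exons of FBXW4, DPCD and POLL. The strongest of these, chr10:103358062-103369532, scored 19.4 and 20.31 in ESCs and 18.37 and 19.96 in NECs. The RNA of both ligands was lower in NECs, and their PIR numbers overlapped between the cell types.

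FGF2 listed 8 and 0 PIRs for the ESC replicates against 5 and 3 for NECs. Its merged lists held 7 against 1 with 0 shared, and it had no gained, lost or retained contact, so its replicates differed more than its cell types. FGF4 had 0 and 2 against 0 and 0. FGF19 had 5 and 8 against 9 and 5 PIRs with 1 gained contact, and its bait contacted the baits of its neighbours FGF4 (19.1 and 18.44 in ESCs, 27.56 and 13.08 in NECs) and FGF3 (18.8 and 20.18, 17.18 and 19.61) in all 4 replicates. FGF1 had 14 and 5 against 4 and 5 PIRs, with 2 lost contacts and 1 retained in its own intron (13.45 and 12.12 in ESCs, 16.08 and 28.86 in NECs), and its contact with the SPRY4 bait was listed only in ESC replicate 1 and the merged ESC list.

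Of the ligands with RNA that rose, FGF9 had 7 and 6 PIRs against 9 and 8 (2 and 6 in the merged lists), with 1 gained contact 610 kb downstream (chr13:22852823-22856366, 14.21 and 12.91). FGF10 had 13 and 5 against 6 and 3 (7 and 3 in the merged lists), with 1 lost contact 784 kb downstream on an exon of NNT. With the 10 kb allowance FGF10 had 0 lost contacts and 1 retained. FGF7 had 1 gained and 2 lost contacts, FGF5 1 gained (0 with the allowance), FGF21 1 gained and 2 retained, and FGF20 1 lost and 1 retained. FGF14 gained 2 neighbouring fragments in its own intron, 459 and 464 kb downstream. The baits of FGF3, FGF6, FGF11, FGF12, FGF13, FGF17 and FGF23 had none of these classes, and of the ETS factors only ETV4 had 1 retained contact (227 kb upstream, on an exon of DUSP3). Those of FGF3, FGF6, FGF12, FGF13, FGF17 and FGF23 had 0 to 7 PIRs in each replicate. The FGF11 bait had 2 and 16 in ESCs and 2 and 5 in NECs and also holds the start of TMEM102.

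Set beside RNA, the promoters of the 6 genes that rose had 66 merged PIRs in ESCs and 94 in NECs, with 20 gained and 4 lost contacts, and those of the 8 genes that fell had 111 and 93, with 3 gained, 5 lost and 18 retained. Those of the 15 genes not called also had more in NECs, 153 and 186, with 7 gained and 5 lost. FGF18, among the 8, went from 62 to 49 merged PIRs. Both NEC replicates lay above both ESC replicates at 5 of the 6, 1 of the 8 and 4 of the 15 promoters. The reverse held at 0 promoters in each of these sets. Of the 20 gained contacts 19 came from SPRY2, DUSP6 and DUSP4. With the 10 kb allowance the 6 genes that rose had 5 gained contacts (4 of SPRY2 and 1 of FGF9) and 1 lost, and the 8 that fell had 2 gained and 1 lost. Across the 29 tested genes the log2 fold change and the difference in mean PIR number had a Pearson r of 0.22 and a Spearman rho of 0.25. These points share 4 RNA and 4 PCHi-C samples and are not independent.

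Sequence was also read at the contacts. All 847 distinct baits and PIRs of the members match HindIII fragments of GRCh37. A core of the motif bound by the loop factor CTCF, spelled CCA, any 2 bases, AG, any 2 bases and GGC, was searched on both strands and lies on 7.73% of all HindIII fragments of the genome. It was found on 6 of the 34 gained, 6 of the 17 lost and 10 of the 40 retained PIRs. Fragments within 10% of the same lengths hold it at 11.95%, 16.18% and 12.42% on average. A match is a run of letters and not a measured binding site. The 60 bases around the match are shown for a gained PIR of SPRY2, a gained and a lost PIR of FGFR2 and a retained PIR of FGF18, with the 12 motif letters in capitals (GRCh37).
SPRY2 gained, chr13:80227105-80227164, minus strand: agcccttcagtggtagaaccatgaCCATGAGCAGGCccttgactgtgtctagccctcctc
FGFR2 gained, chr10:122829962-122830021, plus strand: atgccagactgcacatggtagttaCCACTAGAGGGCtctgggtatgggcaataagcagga
FGFR2 lost, chr10:122781342-122781401, plus strand: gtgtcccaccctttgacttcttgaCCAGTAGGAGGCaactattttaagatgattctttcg
FGF18 retained, chr5:171279274-171279333, plus strand: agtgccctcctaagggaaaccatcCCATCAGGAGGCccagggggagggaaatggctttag

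The gained SPRY2 PIR scored 12.65 and 12.57 in NECs and the gained FGFR2 PIR 12.77 and 14.03, near the limit of 12. The lost FGFR2 PIR scored 12.46 and 12.15 in ESCs. The retained FGF18 PIR scored 17.27 and 13.59 in ESCs and 17.31 and 16.1 in NECs. None of the 7 gained or retained DUSP6 PIRs held the letters.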

How the data were processed

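RNA-seq counts and PCHi-C contact lists were analysed for H9 ESCs and day 7 NECs, with 2 biological replicates of each; whether these were separate cultures is not given in the sources used here. The deposited counts are raw reads per gene: the authors trimmed the reads, mapped them to GRCh37 with TopHat (TopHat2 2.0.8b and Bowtie 1.0.0 in the submitters' processing notes) and counted them without strand in SeqMonk on Ensembl genes. The deposited contact lists give CHiCAGO scores from 12 upward, by replicate and with both replicates scored together; the conventional Hi-C was not analysed here. Genes were filtered with filterByExpr (minimum count 10), scaled by TMM and tested with edgeR 4.0.16 (R 4.3.3) on all genes, cell type alone in the design. The test was tried on simulated counts, where 200 of 200 genes changed 8-fold were called and 0 others of 17564 genes. The changed genes had ample reads and all genes the same spread, so few reads, uneven replicates and smaller changes were not tried. DESeq2 1.42.0, other scalings and filters, a replicate block and leaving out each library were alternatives. CPM used TMM library sizes, on which 3 reads equal 0.121 to 0.159 CPM. SE is the log2 fold change divided by the root of the F statistic. The floor was 3 reads per library, and counting intervals (95%) cover counting error only. Positions of PIRs refer to coding genes of GENCODE v44 lifted to GRCh37. The members, lists and tests were chosen with earlier results of these data known. All members were named. Of the other lists called genes were named, up to 6 by size of change per list; the 2 beyond that among the targets (EGR1 and IER3) and 3 each among cofactors and receptor kinases were named after their values were seen. Of the promoters, those with the 6 largest PIR numbers or a gained, lost or retained contact were named.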

Additional observations from a re-analysis of the deposited data

How the results depend on the processing

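The 14 called members kept direction and call in 11 alternatives each (other scalings, DESeq2, other count filters, no fold limit, the replicate block and leaving out each library), except SPRY2 without NEC replicate 2 (1.44). The DESeq2 test called 7 members higher and the fit with no count filter 9, against 6. The added members had too few reads for the main test. Genes near 0 changed sign: FGFR2 was at 0.061 with library size alone, 0.012 with the replicate block, and from -0.23 to 0.24 with a library left out. SPRY4 was at 0.020 with library size alone and from -0.41 to 0.37 with a library left out, SPRY1 from -0.33 to 0.34 and SPRED1 from -0.078 to 0.10. With no fold limit 11 members were higher and 11 lower, and 10738 genes were called of all tested. Replicate numbers were the only thing shared across cell types (correlation of deviations 0.074), and with the replicate block 6 members were higher and 8 lower, with 3698 genes called in all.

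For the contacts, a score of at least 15 left 118 PIRs in ESCs and 166 in NECs, 71 shared, 9 gained, 1 lost and 10 retained. With PIRs within 10 kb counted as shared, 12 were gained, 7 lost and 73 retained. Leaving out each replicate in turn gave 224 to 357 PIRs in ESCs, 266 to 393 in NECs, 99 to 143 shared, 52 to 162 gained, 29 to 111 lost and 45 to 65 retained. In these settings the remaining replicate stood in for the merged list, so gained, lost and retained numbers could only stay or rise. Contacts left uncalled score below 12 in lists that hold no reads, so the precision of a PIR number is known only from 2 replicates.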

Other observations

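Other receptor tyrosine kinases, which feed the same relay to ERK, were measured beside the FGF receptors. All 16 were tested, 6 rose and 3 fell, with a median log2 fold change of -0.22. NTRK2, a neurotrophin receptor, rose from 1.06 and 0.36 CPM in ESCs to 121 and 95.6 in the NEC libraries (log2 fold change 7.32, SE 0.32, edgeR adjusted p = 2.1e-05). ALK (3.11), NTRK3 (2.07), EGFR (1.98), PDGFRB (1.75) and ERBB4 (1.64) were also higher. KDR, a receptor of vascular endothelial growth factor, fell from 154 and 219 CPM to 14.7 and 21.3 (-3.37, SE 0.24, edgeR adjusted p = 0.00010), and MET (-2.80) and RET (-1.77) were lower. The summed level of the 16 genes was 1155 and 1190 CPM in ESCs and 759 and 857 in NECs.

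The FGF16 bait, a fragment of 57.3 kb, had a contact with another chromosome in all 4 replicates. Its PIR, chr2:138745738-138747094, lies on an exon of HNMT and scored 51.88 and 71.43 in ESCs and 33.62 and 56.75 in NECs. In the merged lists it scored 50.95 in ESCs and 40.31 in NECs, where the strongest contact of FGFR1 reached 40.12. In each merged list FGF16 was the only bait that contacted this fragment, and the origin of the contact was not tested.

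Coding transcripts of some members start away from the bait used. None of the 5 of FGF13 and 1 of the 8 of FGF12 in the basic set of GENCODE start in it, nor does either of the 2 each of SPRED2 and ETV5. One FGF8 transcript starts on the next bait, chr10:103536659-103543465, which had 10 PIRs in each ESC replicate and 10 and 9 in NECs, with 3 retained contacts, 2 gained and 1 lost.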
